A study of Mus musculus with 4 samples.

Results

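The natural killer cell receptors of the CD94 and NKG2 family (Klrd1, Klrk1, Klrc1 and Klrc2), KLRG1 (Klrg1), NK1.1 (Klrb1c) and NKp46 (Ncr1) are described here in T cell preparations of mice given interleukin-27. The 7 genes were taken by symbol from the deposited table of 17039 genes, where each has 1 row, and all 7 passed the filter on low counts. The libraries come from splenic T cells of C57BL/6 mice, separated with magnetic beads about a month after an injection into muscle of a recombinant adeno-associated virus (AAV). The virus carried interleukin-27 in the AAV-IL-27 group and was the control virus in the AAV-ctrl group. Each group has 2 libraries, replicates 1 and 3, and the design text names 4 mice. The title calls the cells CD8+. The age of the mice, the promoter in the virus and the serum level of the cytokine are not given in the sources used here.

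As background, these receptors let natural killer (NK) cells and antigen-experienced CD8 T cells read the surface of other cells. CD94, the product of Klrd1, forms pairs with NKG2A (Klrc1), which inhibits, or with NKG2C (Klrc2), which activates, and both pairs bind the non-classical MHC molecule Qa-1. NKG2D (Klrk1) activates the cell on meeting stress-induced ligands, KLRG1 inhibits on meeting cadherins and marks terminally differentiated effector cells, and NK1.1 and NKp46 are activating receptors used to define NK cells in C57BL/6 mice.

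The preparations were rich in CD8 T cells but held other cells. Cd8a stood at 408 and 349 FPKM (fragments per kilobase of transcript, scaled to library size) in the AAV-IL-27 libraries and at 321 and 335 in the controls, with Cd4 at 8.21 to 10.1 FPKM in all of them. Neutrophil genes summed to 961 and 1580 FPKM with AAV-IL-27, against 30.2 and 21.0 FPKM, and B cell genes to 843 and 1180 FPKM, against 1760 and 1540 FPKM. Of the 8 B cell genes 2 were lower by the edgeR test used below and 6 did not pass. Of 10 macrophage and dendritic cell genes 6 were lower and 4 did not pass, where 17.7% of all tested genes were lower. T cell markers summed to between 3270 and 3740 FPKM. Total expected counts were 15742523 to 16182453 per library.

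The receptors moved in opposite directions. Klrk1, Klrc1 and Klrg1 were higher in AAV-IL-27 and Klrd1, Klrb1c and Ncr1 were lower by edgeR's quasi-likelihood test at an adjusted p under 0.05, while Klrc2 was lower in both AAV-IL-27 libraries without passing. That is 3 of 7 receptors that rose, where 21.3% of the 12887 tested genes rose, and 3 of 7 that fell, where 17.7% fell. In either direction 6 of 7 were called, against 39.0% of all tested genes. Library-scaled counts (CPM) of the groups did not overlap for any of the 7, as for 71.5% of tested genes. Scaling the libraries to the T cell list shifts all genes (their median is -0.00528 on the log2 scale with TMM scaling and -0.206 then). It left 2 receptors higher and 4 lower, with Klrc1 no longer called, where 1335 of 12887 tested genes were higher and 4059 lower. In bulk RNA, fewer cells of a type and less RNA per cell cannot be told apart.

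**Figure D1:**
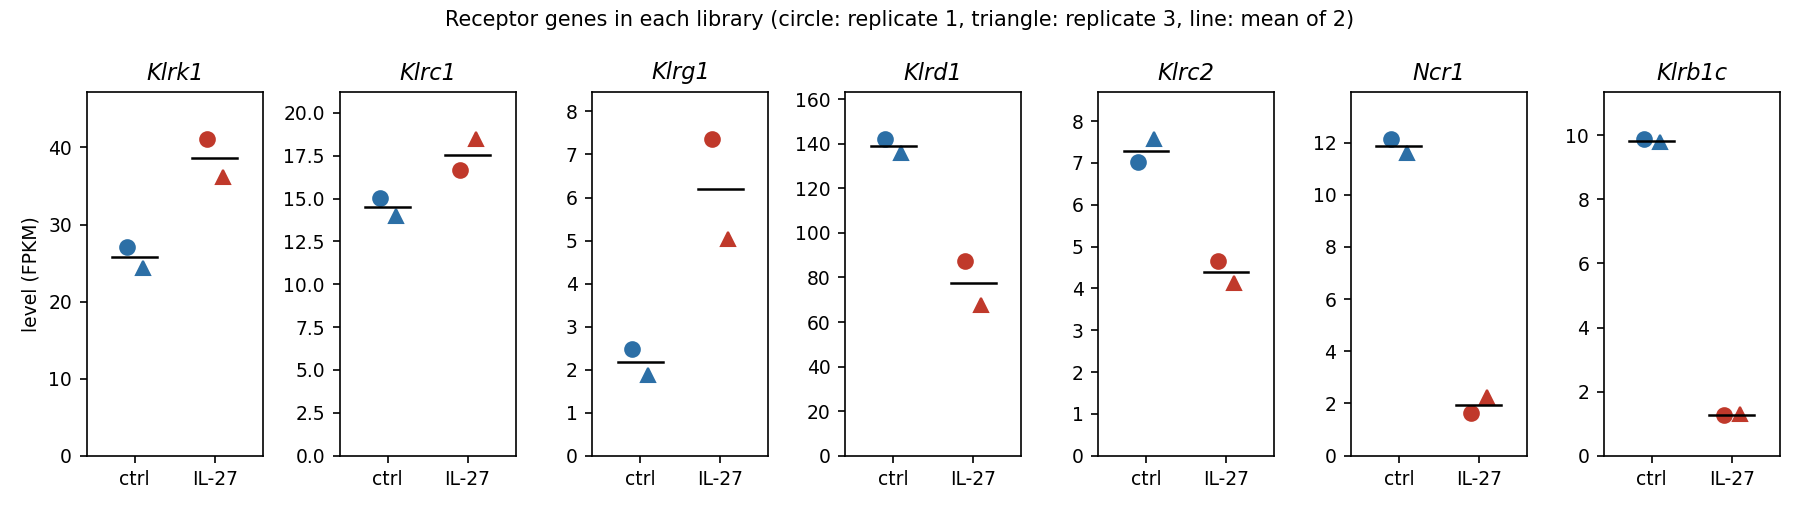
Level of each receptor gene (FPKM, linear axis from 0, own scale per panel) in the 2 AAV-ctrl and 2 AAV-IL-27 libraries, with the group mean as a line. Klrk1, Klrc1 and Klrg1 lie higher and Klrd1, Klrc2, Ncr1 and Klrb1c lower in both AAV-IL-27 libraries than in both AAV-ctrl libraries.

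Promoter sequences show what these genes share next to their start sites. RefSeq promoters of build GRCm38.p6 were at hand for 5 of the 7 genes (Klrk1, Klrc1, Klrc2, Klrb1c and Ncr1). The 250 bases before the outermost start site listed were searched on both strands for a RUNX motif (TGTGGT), a T-box motif (AGGTGT) and a STAT motif (TTCNNNGAA), named for factors of lymphocyte differentiation and cytokine signalling. Each of the 5 promoters held the RUNX letters, with 7 matches in all, and such letters were found in 14.0% of 32851 promoter windows of the same length. None of the 5 held the T-box letters (11.8% of all windows) or the STAT letters (7.02%), so no matches of different motifs overlapped. Genes that rose and genes that fell both held the RUNX letters. The start sites listed for Klrk1, Klrc1 and Klrc2 lie inside the annotated gene, as do the matches of Klrc1 and Klrc2, and the windows of Klrc2 and Klrb1c hold exons of these genes. The 30 bases around each match are shown on the strand of the gene, with the matched letters in capitals (TGTGGT, or ACCACA on the other strand).
Klrk1: tgatagctgtgcTGTGGTtgtgtgggggtt
Klrc1: gttgttgttgttACCACAgcactcgtattc
Klrc2, first match: ttcaatagaatcACCACAgcatagaacaca
Klrc2, second match: gcatagaacacaagtagaattACCACAgag
Klrb1c: aggaaggaaagcTGTGGTcatggtgttttg
Ncr1, first match: ttagatccaaaaTGTGGTtaaatgtgttat
Ncr1, second match: caggcctcacccACCACAtcctgtgcatct

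The first base of the match lies 129 bases before the start site in Klrk1 (chr6:129623976-129624005, minus strand), 87 in Klrc1 (chr6:129679043-129679072, minus), 36 and 9 in Klrc2 (chr6:129660615-129660644 and chr6:129660597-129660626, minus), 89 in Klrb1c (chr6:128788713-128788742, minus), and 176 and 41 in Ncr1 (chr7:4337527-4337556 and chr7:4337662-4337691, plus). Runx3, a transcription factor of CD8 T cells and NK cells, named here after its value was seen, had a log2 fold change of 0.34 ± 0.053 (SE, edgeR adjusted p = 0.00103), and 0.14 (adjusted p = 0.307) under T cell list scaling. A letter match is a description of the sequence and no binding was measured. For comparison, the stretches of these windows outside the annotated gene are given for Klrk1, which rose (211 bases, chr6:129623904-129624114, minus), and Ncr1, which fell (250 bases, chr7:4337465-4337714, plus), with the RUNX letters in capitals.
Klrk1: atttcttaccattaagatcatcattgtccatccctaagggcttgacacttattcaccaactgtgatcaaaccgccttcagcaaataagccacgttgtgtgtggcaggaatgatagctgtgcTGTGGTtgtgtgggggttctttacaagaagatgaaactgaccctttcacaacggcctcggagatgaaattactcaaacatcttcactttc
Ncr1: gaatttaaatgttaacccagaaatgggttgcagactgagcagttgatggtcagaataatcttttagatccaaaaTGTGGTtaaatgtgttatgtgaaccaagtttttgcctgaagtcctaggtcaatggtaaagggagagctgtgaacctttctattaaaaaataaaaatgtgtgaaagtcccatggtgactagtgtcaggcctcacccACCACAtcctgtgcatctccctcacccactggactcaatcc

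Among the activating receptors without a CD94 partner, Klrk1 rose and Klrb1c and Ncr1 fell. Klrk1 (NCBI Gene 27007, chromosome 6, 129610323 to 129623903) had 1545 and 1389 expected counts in replicates 1 and 3 of AAV-IL-27, against 1060 and 1025 in the same order for AAV-ctrl. Its levels were 41.0 and 36.2 FPKM, against 27.1 and 24.4 FPKM. Both AAV-IL-27 libraries lay above both controls, by 0.51 ± 0.066 (SE) on the log2 scale of the counts, or 1.42-fold (edgeR adjusted p = 0.000333).

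Klrb1c (NCBI Gene 17059, chromosome 6, 128778485 to 128788641) showed the largest difference of the 7. It had 53.5 and 55.5 expected counts in AAV-IL-27, against 411 and 407 in AAV-ctrl, or 1.26 and 1.30 FPKM against 9.87 and 9.79 FPKM. The libraries of a group were nearly alike and the groups far apart, 7.40-fold lower in AAV-IL-27 (log2 fold change -2.89 ± 0.12, edgeR adjusted p = 3.3e-07). Its counts are not whole in any library, and 17.0% of its 50-base stretches also occur in transcripts of other genes, chiefly Gm44511, Klrb1a and Klrb1b.

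Ncr1 (NCBI Gene 17086, chromosome 7, 4337715 to 4345184) is the only one of the 7 outside chromosome 6 and shares no 50-base stretch with other genes. Counts were 38 and 53 in AAV-IL-27, against 278 and 265 in AAV-ctrl, and levels 1.62 and 2.25 FPKM against 12.1 and 11.6 FPKM. It was 5.89-fold lower in AAV-IL-27 (log2 fold change -2.56 ± 0.17, edgeR adjusted p = 5.08e-06). Neither gene was at 0 in AAV-IL-27, and Klrb1c per Ncr1, both in FPKM, stood at 0.778 and 0.578 in AAV-IL-27, against 0.814 and 0.844 in AAV-ctrl.

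The CD94 and NKG2 chains did not move together. Klrd1 (NCBI Gene 16643, chromosome 6, 129588092 to 129598775), the shared partner, was the highest of the 7 in every library on the FPKM scale. It stood at 87.5 and 67.5 FPKM in AAV-IL-27, against 142 and 136 FPKM in AAV-ctrl, from 1228, 955, 1984 and 1890 counts. The AAV-IL-27 libraries differed from each other by more than the controls did, and both lay below them (log2 fold change -0.81 ± 0.12, 1.75-fold lower, edgeR adjusted p = 0.00491). Without AAV-IL-27 replicate 1 or 3 the log2 fold change was -1.01 or -0.64.

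Klrc1, the inhibitory chain (NCBI Gene 16641, chromosome 6, 129666015 to 129682852), had 16.7 and 18.5 FPKM in AAV-IL-27, against 15.0 and 14.0 FPKM in AAV-ctrl. This is the smallest of the called differences, 1.25-fold (log2 fold change 0.33 ± 0.082, edgeR adjusted p = 0.0122). The call was lost with DESeq2 (adjusted p = 0.0826), under T cell list scaling (0.13, adjusted p = 0.428), without AAV-IL-27 replicate 3 (adjusted p = 0.0583) and without AAV-ctrl replicate 3 (adjusted p = 0.119).

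Klrc2, the activating chain (NCBI Gene 16642, chromosome 6, 129649602 to 129660737), was the least counted of the CD94 partners, with 68.4 and 60.4 counts in AAV-IL-27, against 92.6 and 90.0 in AAV-ctrl. Levels were 4.66 and 4.13 FPKM against 7.02 and 7.56 FPKM, with no overlap. On the counts its log2 fold change was -0.50 ± 0.19 and did not pass (edgeR adjusted p = 0.0637), whereas limma on log2(FPKM + 0.1) gave -0.72 (adjusted p = 0.00392). It also passed with upper-quartile factors, library size alone, scaling to the T cell list and limma on log2(FPKM + 1).

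The CD94 partners Klrc1 and Klrc2 lay on opposite sides of 0. By construction their ratio within a library therefore differs between groups more than either does alone. Klrc1 stood at 3.58 and 4.47 times the FPKM of Klrc2 in AAV-IL-27, and at 2.14 and 1.85 times in AAV-ctrl. Klrc1 per Klrd1 was 0.191 and 0.273 in AAV-IL-27, against 0.106 and 0.103 in AAV-ctrl, while Klrc2 per Klrd1 overlapped between groups (0.0533 and 0.0612, against 0.0495 and 0.0556). These ratios are given without a test. Klrc1 and Klrc2 share reads: 38.6% of the 50-base stretches of Klrc1 transcripts and 29.4% of those of Klrc2 occur in other genes, nearly all in each other or in Klrc3, and their counts are whole in none of the libraries. How the authors' software divided such reads touches both values, and their single levels are uncertain.

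KLRG1 was the receptor with the largest rise. Klrg1 (NCBI Gene 50928, chromosome 6, 122270596 to 122282833) had 160 and 110 counts in AAV-IL-27, against 53 and 40 in AAV-ctrl, or 7.35 and 5.03 FPKM against 2.48 and 1.88 FPKM. Both AAV-IL-27 libraries exceeded both controls, though they differed from each other, and the level was 2.93-fold higher (log2 fold change 1.55 ± 0.24, edgeR adjusted p = 0.00112). It remained low on the FPKM scale next to Klrk1, at 0.179 and 0.139 of its level in AAV-IL-27, against 0.0916 and 0.0772 in AAV-ctrl. KLRG1 also carries the older name MAFA, from mast cells. Genes of basophils and mast cells differed in direction in the same libraries. Mcpt8 rose from 0.83 ± 0.141 to 33.7 ± 2.31 FPKM (SD, n = 2) and Cpa3 from 1.54 ± 0.255 to 9.03 ± 1.68 FPKM. Cma1, a mast cell protease gene of the NK marker list named after its value was seen, fell from 2.28 ± 0.297 to 0.35 ± 0.325 FPKM. Its counts were low, 2 and 10 in AAV-IL-27 against 35 and 42 in AAV-ctrl. The part of such cells in the Klrg1 value was not tested.

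**Figure D2:**
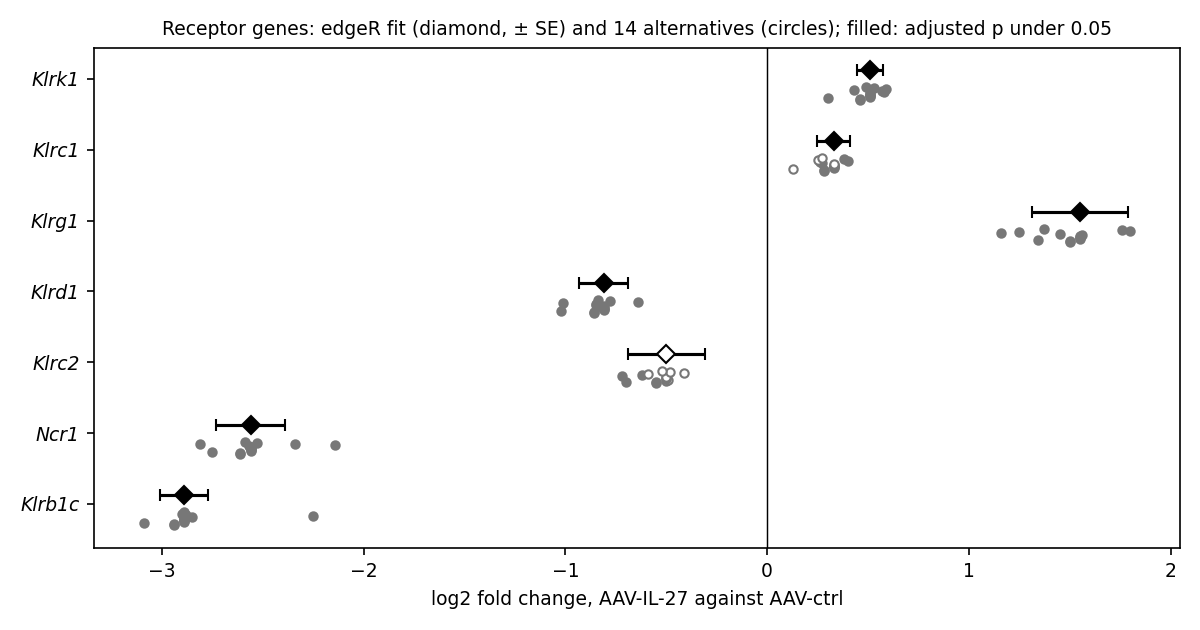
Log2 fold change (AAV-IL-27 against AAV-ctrl) of each receptor gene in the edgeR fit (diamond with SE) and under 14 alternative settings (circles), filled where the adjusted p is under 0.05. All values keep the sign of the edgeR fit, and open symbols occur for Klrc1 and Klrc2.

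The order of levels on the FPKM scale in AAV-ctrl was Klrd1, Klrk1, Klrc1, Ncr1, Klrb1c, Klrc2 and Klrg1. In AAV-IL-27 it was Klrd1, Klrk1, Klrc1, Klrg1, Klrc2, Ncr1 and Klrb1c. The first 3 kept their places. Among the rest, Klrg1 and Klrc2 had neighbouring means in AAV-IL-27 (6.19 and 4.39 FPKM) with libraries that did not overlap.

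Of the 4 adaptor chains, which carry the signal of the activating receptors, 1 rose and none fell by edgeR. Among all tested genes 21.3% rose and 17.7% fell. Hcst (DAP10, the partner of NKG2D) had 59.1 ± 5.28 FPKM in AAV-IL-27, against 59.5 ± 0.82 in AAV-ctrl (SD, n = 2; log2 fold change 0.04 ± 0.089, edgeR adjusted p = 0.741). Tyrobp (DAP12) had 84.9 ± 4.72 and 89.9 ± 3.22 FPKM (adjusted p = 0.749), and Fcer1g 65.5 ± 12.8 and 70.0 ± 1.65 FPKM (adjusted p = 0.813). The sign turned for Hcst under the other scalings, limma and without AAV-IL-27 replicate 1, for Tyrobp without AAV-IL-27 replicate 3, and for Fcer1g without AAV-IL-27 replicate 1. Fcer1g passed as lower without AAV-IL-27 replicate 3 (-0.26, adjusted p = 0.0338). Cd247, the CD3 zeta chain that also serves NKp46, rose by 0.19 ± 0.058 (adjusted p = 0.0258), which did not pass with the other scalings, with limma, without AAV-IL-27 replicate 1 or without AAV-ctrl replicate 1, and stood at -0.01 under T cell list scaling.

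Of 13 ligand genes listed, 7 were tested, of which 2 rose and none fell by edgeR, beside 21.3% and 17.7% of all tested genes. H2-T23, which encodes Qa-1, the ligand of the CD94 pairs, went from 217 ± 6.77 to 315 ± 19.7 FPKM (log2 fold change 0.59 ± 0.056, adjusted p = 5.46e-05). Cdh1, which encodes E-cadherin, a ligand of KLRG1, went from 2.54 ± 0.12 to 4.22 ± 0.643 FPKM (0.79 ± 0.13, adjusted p = 0.00128). Ligands of NKG2D did not pass: Raet1e was at -0.63 (adjusted p = 0.0949), H60b at 0.12, H60c at 0.01 and Ulbp1 at 0.11. Raet1e passed as lower without AAV-IL-27 replicate 1 (-1.08, adjusted p = 0.000556) and under T cell list scaling (-0.85, adjusted p = 7.78e-06). Cdh2, another cadherin, was at -0.10 (adjusted p = 0.839), and Raet1d and Cdh4 had too few counts to be tested.

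In the list of signalling proteins next to these receptors, 7 of 16 tested rose and 2 fell (median log2 fold change 0.103, against -0.00528 over all genes). Over all tested genes 21.3% rose and 17.7% fell. The kinases Fyn (0.91 ± 0.064, edgeR adjusted p = 1.09e-05) and Zap70 (0.43 ± 0.064) and the adaptor Sh2d1a (SAP, 0.80 ± 0.095) rose. Of the phosphatases that bind inhibitory receptors, Inpp5d (SHIP-1), named after its value was seen, did not pass (0.04, adjusted p = 0.523, below 0 under other scalings). The other two differed in direction, Ptpn11 (SHP-2) up by 0.33 ± 0.05 (adjusted p = 0.000764) and Ptpn6 (SHP-1) down at -0.34 ± 0.069 (adjusted p = 0.00584). Pik3r1, a regulatory subunit of PI3 kinase, was at -0.25 ± 0.049 (adjusted p = 0.00402). Ptpn6 was not called without AAV-ctrl replicate 1 (-0.31) nor Pik3r1 without AAV-ctrl replicate 3 (-0.23). With either AAV-ctrl library left out fewer of the list were called, as over all tested genes. More of the list were called lower without AAV-IL-27 replicate 3. Scaled to T cell markers 2 were higher and 5 lower, where 1335 of all 12887 tested genes were higher and 4059 lower. Ptpn11 (edgeR adjusted p = 0.339) and Zap70 (adjusted p = 0.101) did not pass under that scaling.

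Transcription factors tied to NK receptor expression were higher in 11 of 20 cases and lower in 4 by edgeR (median 0.255), where 21.3% of all tested genes were higher and 17.7% lower. Tbx21, which encodes T-bet, rose by 1.36 ± 0.064 (edgeR adjusted p = 6.29e-07), Stat3 by 0.67 ± 0.048 and Maf by 2.30 ± 0.14. Bach2, a repressor of effector genes, fell by 0.64 ± 0.062 and Ets1 by 0.29 ± 0.044. Tcf7 and Stat4 also fell, but neither passed without AAV-ctrl replicate 1 or 3, nor Stat4 with DESeq2 or without AAV-IL-27 replicate 1. With 1 or the other AAV-ctrl replicate left out 9 were higher and 2 lower, and under T cell list scaling 8 and 6, where 1335 of all 12887 tested genes were higher and 4059 lower.

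Of 12 genes of terminal effector CD8 T cells, the setting in which KLRG1 is best known, 8 rose and 2 fell by edgeR (median 0.753), beside 21.3% and 17.7% of all tested genes. With AAV-ctrl replicate 1 or 3 left out fewer of them were called, as over all tested genes, and their median was 0.814 or 0.693. Ifng, interferon gamma, rose by 2.56 ± 0.099 (edgeR adjusted p = 2.24e-07) and Prf1, perforin, by 1.01 ± 0.057. Klf2, a factor that keeps cells recirculating, fell by 0.81 ± 0.046. S1pr5, an egress receptor, was at -0.59 ± 0.2 (adjusted p = 0.0398) and not called with DESeq2, without AAV-ctrl replicate 1 or without AAV-IL-27 replicate 1 or 3. Of 12 memory and innate-like CD8 genes, 5 rose and 5 fell (median 0.0483). Under T cell list scaling 3 were higher and 5 lower, where 1335 of all 12887 tested genes were higher and 4059 lower. With AAV-ctrl replicate 1 or 3 left out fewer of these genes fell, as over all tested genes (median of the list 0.0436 or 0.0514). Il2rb, the receptor chain for interleukin-15, rose by 0.57 ± 0.047, Cxcr3 by 1.59 ± 0.082 and Ly6c2 by 1.19 ± 0.097, while Il7r fell by 1.25 ± 0.091.

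In the NK cell marker list, which leaves the 7 receptors out, 10 of 13 genes fell, 1 rose and 2 did not pass (median -1.90). By comparison, 17.7% of all tested genes fell and 21.3% rose. The Ly49 genes Klra8 (-3.59 ± 0.17, edgeR adjusted p = 7.01e-07), Klra9 (-2.72 ± 0.19) and Klra4 (-2.55 ± 0.17), near-copies of other Klra genes and so uncertain, fell, as did Klri2 (-1.90 ± 0.14). Gzma, granzyme A, which T cells express too, rose by 0.86 ± 0.12 (adjusted p = 0.00437). The number that fell was 6 without AAV-ctrl replicate 1, 5 without AAV-ctrl replicate 3 and 6 with DESeq2.

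Without Gzma, a choice made after seeing that it held most of the sum, the NK markers summed to 19.7 and 17.8 FPKM in AAV-IL-27, against 72.0 and 68.9 FPKM in AAV-ctrl. That sum, which includes the uncertain Ly49 genes, changed by -1.91 on the log2 scale. Any receptor that fell by less therefore stands higher relative to it by construction. Relative to that sum, 5 of 7 receptors were higher in both AAV-IL-27 libraries and 2 were lower. Klrd1, which fell by itself, stood at 445% and 378% of the sum in AAV-IL-27 and 197% in each AAV-ctrl library. Klrc2 stood at 23.7% and 23.2%, against 9.75% and 11.0%. Klrb1c, at 6.41% and 7.29% against 13.7% and 14.2%, and Ncr1, at 8.24% and 12.6% against 16.8% in each, were lower even so. With Gzma in the list the sums overlapped between the groups in FPKM (158 and 130 FPKM, against 148 and 135 FPKM). In CPM they did not, at 168 and 143 in AAV-IL-27 against 186 and 172 in AAV-ctrl. Relative to either sum, Klrk1, Klrc1 and Klrg1 were higher and the other 4 lower. No test was made of these ratios, and the part of NK cells in each receptor's value was not tested.

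**Figure D3:**
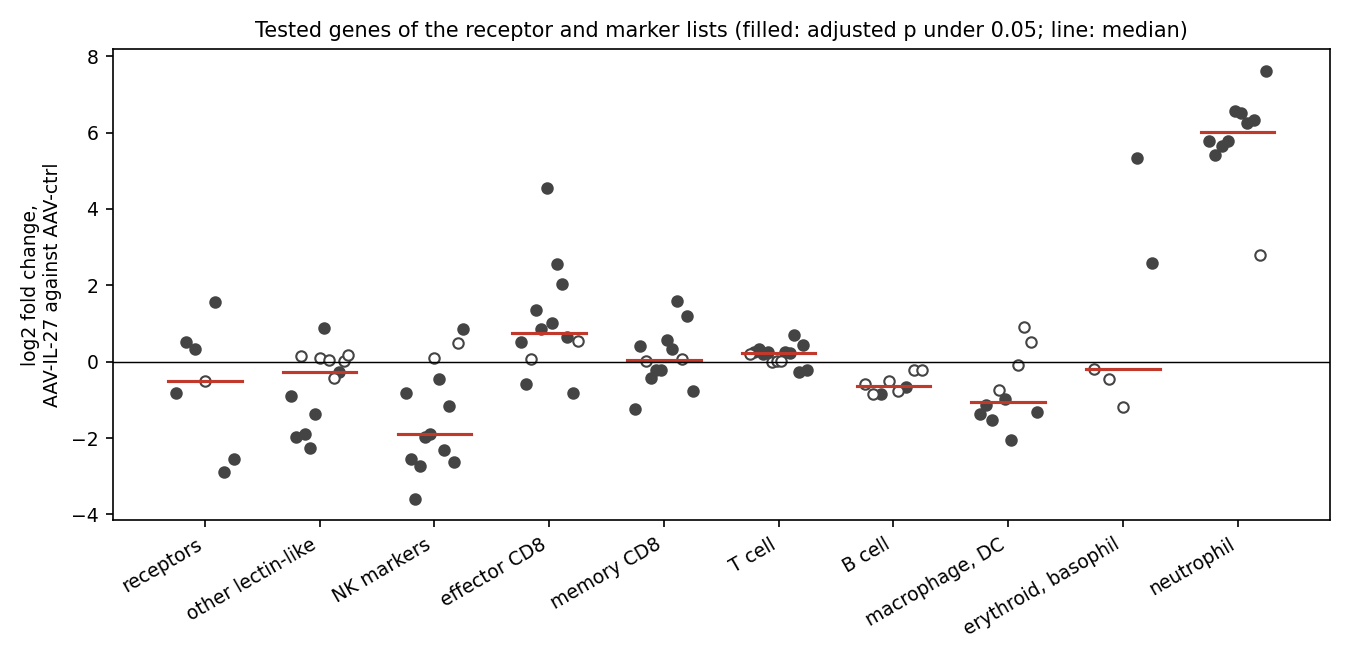
Log2 fold change (AAV-IL-27 against AAV-ctrl) of every tested gene of the receptor list and of 9 other lists, filled where the adjusted p is under 0.05, with the list's median as a line. Over all tested genes 21.3% rose and 17.7% fell. Receptors and other lectin-like genes lie on both sides of 0, while 10 of 13 NK markers fell and 9 of 10 neutrophil genes rose. Fewer of these NK markers and neutrophil genes were called with AAV-ctrl replicate 1 or 3 left out, as over all tested genes.

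Of the T cell markers 8 of 14 rose and 2 fell. Fewer were called if AAV-ctrl replicate 1 or 3 was left out, as over all tested genes (median of the list 0.215 or 0.246). When the libraries were scaled to the list itself, 1 rose and 2 fell. For all tested genes, 21.3% rose and 17.7% fell, and under that scaling 1335 of 12887 were higher and 4059 lower. Per unit of the T cell marker sum, Klrk1 and Klrg1 were higher and Klrd1, Klrc2, Klrb1c and Ncr1 lower in both AAV-IL-27 libraries, and Klrc1 overlapped. Neutrophil genes rose in 9 of 10 cases. Fewer of them were called with AAV-ctrl replicate 1 or 3 left out, as over all tested genes (median of the list 6.66 or 5.96). The part of neutrophils in the receptor values was not tested. Of 9 markers of NKT and gamma delta T cells, which can carry NK1.1, 3 could be tested and 1, Il18r1, was called lower (-0.28, edgeR adjusted p = 0.0249). It was not called without AAV-IL-27 replicate 1 (adjusted p = 0.0836) or without AAV-ctrl replicate 1 (adjusted p = 0.187). Zbtb16, which defines NKT cells, stood at 0.16 to 0.17 FPKM in all libraries.

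Most of these receptors sit side by side. Klrd1, Klrk1, Klrc3, Klrc2 and Klrc1 lie in this order within 94.8 kb of chromosome 6 (129588092 to 129682852), with starts 22.2, 48.2, 61.5 and 77.9 kb from that of Klrd1. Along this stretch Klrd1 fell, Klrk1 rose, Klrc3 fell (-0.90 ± 0.14, edgeR adjusted p = 0.00113), Klrc2 did not pass and Klrc1 rose. Klre1, a lectin-like relative on the Klrd1 side, fell by 1.98 ± 0.16. On the other side Klri1 did not pass (0.14, edgeR adjusted p = 0.506) while its neighbour Klri2 fell. In the list of other lectin-like receptors 6 of 13 tested fell and 1, Cd69, an early activation marker of the same complex, rose by 0.89 ± 0.056 (median of the list -0.258). The shares of all tested genes that fell and rose were 17.7% and 21.3%.

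**Figure D4:**
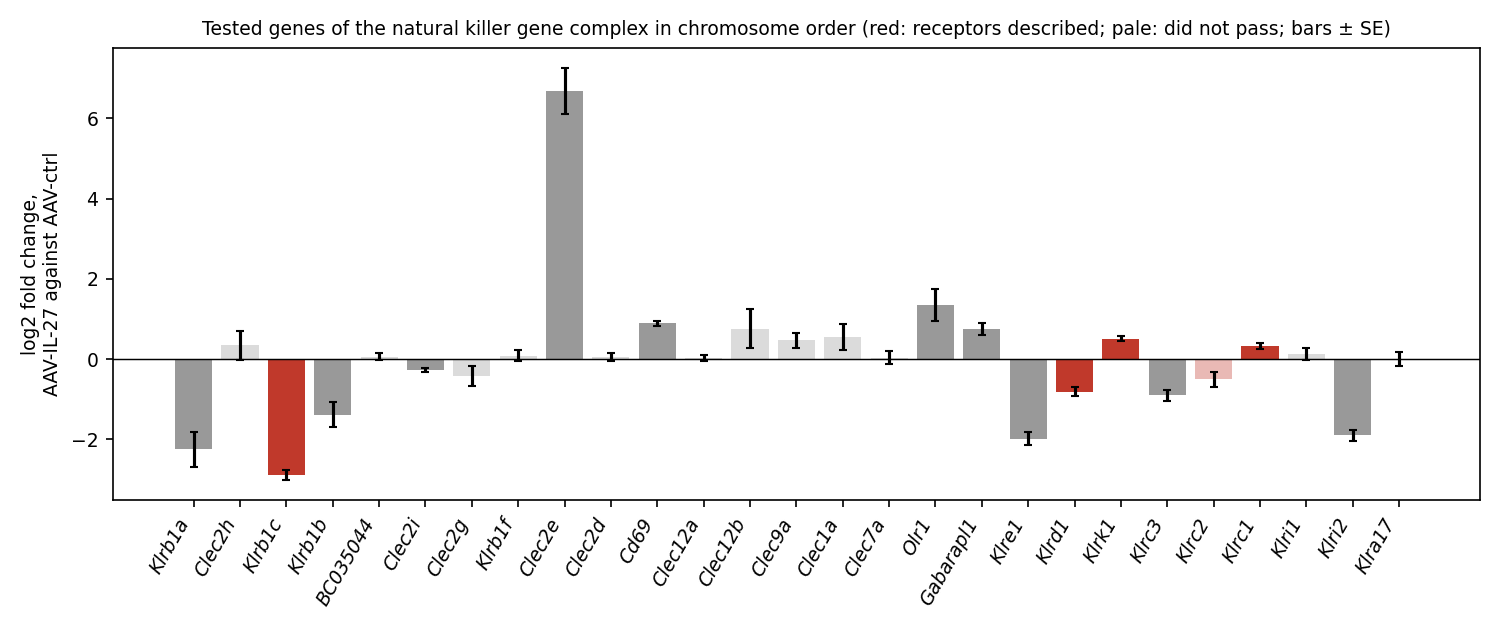
Log2 fold change with SE (AAV-IL-27 against AAV-ctrl) of tested genes from Klrb1a to Klra17 in chromosome order, with receptors described here in red and genes that did not pass in pale colour. Neighbouring genes differ in direction, as Klrd1 (-0.81) and Klrk1 (0.51) do, and the bar of Clec2e is no reliable fold because it had 1 and 0 counts in AAV-ctrl.

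For Klrk1 and Klrc2 the counts and FPKM gave different sizes of change. Counts divided by FPKM reflect the mean length of the transcripts to which the authors' software gave the reads. Taken relative to the median gene, this length was 0.816 and 0.828 for Klrk1 in AAV-IL-27, against 0.865 and 0.934 in AAV-ctrl, and for Klrc2 0.318 and 0.316 against 0.291 and 0.264. The mean shift was -0.13 and 0.19 on the log2 scale, while only 2.46% of 10216 genes shifted by 0.1 or more in size. The groups did not overlap in either gene, though the AAV-ctrl libraries also differed from each other. The other 5 receptors shifted by at most 0.02 in size. Klrk1 differed by 0.59 in mean FPKM and 0.51 in TMM-scaled counts, and Klrc2 by -0.73 and -0.50. The scales differ too, since Klrc1, with a length shift of 0.00, differed by 0.28 in FPKM and 0.33 in counts.

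**Figure D5:**
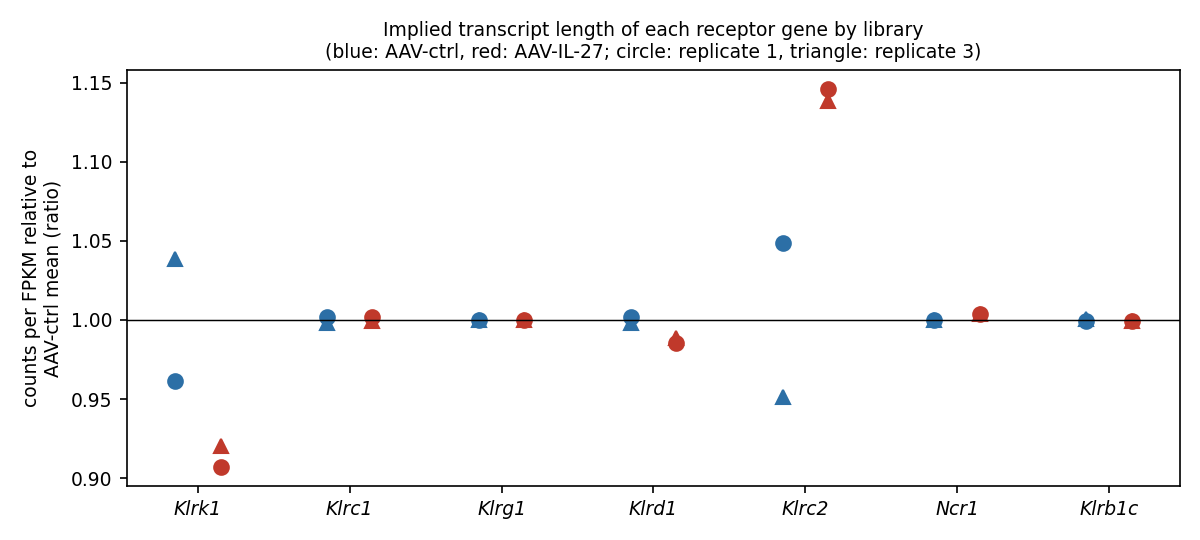
Counts per FPKM of each receptor gene in each library, relative to its AAV-ctrl mean (ratio, axis not from 0). The points of Klrk1 and Klrc2 spread between and within groups, and those of the other 5 genes lie close to 1.

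The genes most alike to each receptor were taken by the distance between log2 CPM over the 4 libraries, centred on their mean, among 9276 genes. Ncr1 was most like Trat1, an adaptor of the T cell receptor (distance 0.429), Klrb1c (0.445) and Ntrk3 (0.534), and Klrb1c was most like Trat1 (0.494), Klra7 (0.699) and Ntrk3 (0.804). Klrg1 was nearest to Gata2, a transcription factor of mast cells and basophils (0.118), then Mcm10 (0.218) and Trerf1 (0.231). Klrk1 had Nup210 (0.0263), Rab29 (0.0292) and Cdc34 (0.0344). Klrc1 had Mxi1 (0.0146), Cited2 (0.0236) and Slc7a5 (0.0264). For Klrd1 these were Zfp963 (0.112), Btbd11 (0.116) and Fgd6 (0.122), and for Klrc2 Mturn (0.0351), Arrb1 (0.0441) and Dhodh (0.045). With 4 libraries in 2 groups, such distances mostly reflect the size of the group difference.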

How the data were processed

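RNA was sequenced from splenic T cells of 2 AAV-IL-27 and 2 AAV-ctrl mice. The authors deposited expected counts, which need not be whole, per gene and library. The authors also deposited a normalized value per library, read here as FPKM because its ratio to the counts followed the library totals over 10216 genes, although the header does not name the unit. Per the submitters' processing notes, HISAT2 2.0.4, Bowtie2 2.2.5, RSEM 1.2.12 and DESeq2 1.4.5 were used with build GRCm38.p6, with no role given. The sources used here do not say whether strand was counted.

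Expected counts were rounded, filtered with filterByExpr (12887 of 17039 genes left), scaled with TMM and compared with edgeR 4.0.16 in R 4.3.3 (robust quasi-likelihood test, two-sided, no block, Benjamini-Hochberg over all tested genes, threshold 0.05). The SE is the log2 fold change over the square root of F. The fit was tested on simulated data. Alternatives used DESeq2 1.42.0, limma 3.58.1 on log2(FPKM + 0.1) and log2(FPKM + 1), other scalings and filters, and each library left out. A further alternative, NK markers without Gzma, was chosen after seeing the data. Named were the 7 receptors, the adaptors and ligands, the 4 genes of each other list with the smallest p and those running against their list, and the 3 nearest genes per receptor above a mean log2 CPM of 3. A gene that this rule names is not reported here. Members and lists were chosen with earlier results of these data known. Promoters are RefSeq sequences, and shared 50-base stretches come from GENCODE transcripts of the same build. Counting noise did not account for the spread within a group (chi-square divided by its degrees of freedom was 2.55 for AAV-ctrl, 6.79 for AAV-IL-27). Group-average columns were not used.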

Additional observations from a re-analysis of the deposited data

How the results depend on the processing

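Klrd1, Klrk1, Klrg1, Klrb1c and Ncr1 kept their direction and their call under all 14 alternatives. Klrc1 and Klrc2 kept only their direction. Klrc1 was not called when scaled to the T cell list (0.13) or with DESeq2 (0.33), and it ranged from 0.25 to 0.40 with a library left out. Klrc2 became called with upper-quartile factors (-0.55), library size alone (-0.55), scaling to the T cell list (-0.70), limma on log2(FPKM + 0.1) (-0.72) and limma on log2(FPKM + 1) (-0.62). The number of genes called was 5023, with 2745 higher and 2278 lower. It was 3243 with DESeq2 and ranged from 2635 to 4886 with a library left out, the lowest values being those without AAV-ctrl replicate 1 (2635) and AAV-ctrl replicate 3 (2743). The split was 2362 higher and 2979 lower with upper-quartile factors, 2363 and 2975 with library size alone, and 1335 and 4059 when scaled to the T cell list. The cause of these shifts was not tested. Per unit of NK marker signal, Klrc1 went to -0.14 (log2) with the Ly49 genes left out, and Klrd1 to 1.06 and Klrc2 to 1.18 with Gzma left out (chosen after seeing the data), where 5 receptors in place of 3 were higher in both AAV-IL-27 libraries. With Gzma left out the marker sum itself changed by -1.91 (log2), so receptors that fell by less count as higher. With the replicate number as a block, 4971 genes and 6 receptors were called, Il18r1 was not (adjusted p = 0.0628) and Raet1e was (adjusted p = 0.0491). Deviations from the group mean had a correlation of -0.000711 between replicates of the same number. With 2 libraries per group this value is the same for either number by construction. It cannot show whether the libraries were paired, and the pairing was not used. Low counts limit Klrc2 (60.4 to 92.6), Klrg1 (40 to 160) and, in AAV-IL-27, Ncr1 and Klrb1c.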

Other observations

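Clec2e, a lectin-like gene between Klrb1c and Klrd1 on chromosome 6 (129091816 to 129100903), was in no list. It and the other genes of this paragraph are named after their values were seen. It had 66 and 61 expected counts in AAV-IL-27 and 1 and 0 in AAV-ctrl, or 1.80 and 1.66 FPKM against 0.03 FPKM and a listed 0 (edgeR adjusted p = 2.44e-05). Its neighbour Clec2d, a ligand of NK receptors of the Klrb1 family, was at 0.05 (adjusted p = 0.713) and turned sign when scaled to the T cell list, without AAV-IL-27 replicate 1 and without AAV-ctrl replicate 3. Clec2i fell by 0.26 (adjusted p = 0.00281). The genes of the Klrb1 family next to Klrb1c were lower too. Klrb1a was at -2.25 (edgeR adjusted p = 0.00348), with 4.25 and 6.36 counts in AAV-IL-27 against 25.57 and 22.64 in AAV-ctrl. Klrb1b was at -1.38 (adjusted p = 0.00636), with 17.25 and 31.18 counts against 59.98 and 67.43. Klrb1f was at 0.09 (adjusted p = 0.636), and Klrb1 had too few counts to be tested. Klrb1a was not called without AAV-ctrl replicate 1 (adjusted p = 0.0527), nor Klrb1b without AAV-ctrl replicate 3 (adjusted p = 0.0721).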
